A study of Mus musculus with 39 samples.

Results

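Left ventricles of mice homozygous for the phospholamban deletion R14del were compared with left ventricles of wild type mice at 5 weeks of age. The comparison used the 8 libraries that the sample titles place at this age, 4 wild type and 4 homozygous, of 39 libraries in the series, and it was described across all genes of the count table. The series follows R14del hearts at 3, 5 and 8 weeks and sets them beside hearts with surgical ischemic disease, which were not used here. All 8 samples came from mice of strain C57BL6/J that were 5 weeks old and had no surgery. Wild type mice carried 2 normal Pln alleles, and homozygous mice carried R14del on both, written Pln R14del/R14del. The labels do not name animals, sex or litters, and the p-values therefore cover only how these 8 samples vary, which may be technical. RNA was extracted with Trizol from whole ventricular tissue and sequenced from stranded mRNA libraries. In such bulk tissue, fewer cells of a type and less RNA per cell cannot be told apart.

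Phospholamban is a small membrane protein of the sarcoplasmic reticulum, the calcium store of the muscle cell. It holds back the calcium pump SERCA2a, encoded by Atp2a2, until protein kinase A phosphorylates it during beta-adrenergic stimulation, which lets the pump refill the store faster and the muscle relax sooner. R14del removes 1 arginine from the cytosolic end of the protein, within the stretch that the kinase recognises, and is known in people as a cause of dilated and arrhythmogenic cardiomyopathy.

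The deleted codon is shown with its surroundings because it defines the homozygous group. Pln lies on the plus strand of chromosome 10, and its coding sequence, 156 bases for 52 residues, lies in 1 exon. The window gives the first 30 codons in GRCm38, chr10:53343864-53343953, read 5′ to 3′ from the GENCODE vM21 transcripts, with codon 14 in capitals. A script translated codon 14 as arginine, and codon 13 before it also encodes arginine. The counts per gene do not show the deletion itself.
Pln coding start: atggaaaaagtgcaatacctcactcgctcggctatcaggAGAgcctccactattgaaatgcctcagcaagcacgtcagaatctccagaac

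Homozygous hearts differed widely from wild type hearts at this age. In all, 13323 of 38293 genes in the table had enough counts to be tested. The quasi-likelihood test of edgeR with Benjamini-Hochberg adjustment called 5821 of them at an adjusted p below 0.05, which is 43.7% of genes tested. Of these, 2969 rose (22.3% of genes tested) and 2852 fell (21.4%). CPM is a gene's count scaled to a library of 1 M counts, and fold changes come from the fit after TMM scaling, which sets the typical gene to no change. The CPM ranges of the 4 homozygous and the 4 wild type hearts did not overlap for 6017 genes (45.2%). The median log2 change over all genes tested was -0.00. With scaling by library size alone this median moved up by 0.21 and the split became 5388 higher and 1411 lower. Counts of rises and of falls therefore depend on the scaling. This includes some falls larger than 0.21 on the log2 scale, such as that of Rps2 at -0.29, which then lost its call. Gene lists were written for the tissue with earlier results of these data known, and 1618 of their 1728 genes passed the filter on low counts. Of these 1618 genes 668 rose and 519 fell, which are larger shares than over all genes tested. How much of this comes from the choice of the lists was not tested.

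The libraries held 9.78 M to 11.98 M counts. Mitochondrially encoded genes took 19.9% to 21.1% of counts in wild type and 14.6% to 15.9% in homozygous hearts. The 10 most abundant genes of each library took 24.9% to 26.2% and 18.7% to 20.5%. The first principal component of log2 CPM held 68.6% of the variance and separated the genotypes, with homozygous heart 3 nearest to wild type at 27.7 against 38.8 to 41.2 for the other homozygous hearts. The count of calls was 5873 without it. Replicate pairs differed from each other by more than counting noise, with a chi-square per gene of 4.03 to 9.39. Defining markers of working ventricle (Myh6, Myl2, Atp2a2) were at 4711 CPM or more in group mean in both groups, and those of atrium (Myl7, Myl4, Sln) were at 5.71 to 48.4 CPM and did not pass the test. Of all 7 tested markers of atrial muscle 2 rose, Pam and Dkk3, and 1 fell, and their sum was 576 to 892 CPM in wild type and 932 to 1185 CPM in homozygous hearts, without overlap. Most of this difference lay in Pam, which alone gained 353 CPM in mean, while the mean sum went from 673 to 1037 CPM. Dkk3 did not pass in the fits of 23 and of 39 libraries (edgeR adjusted p = 0.142 and 0.394).

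Genes that govern calcium entry into the store were lower in homozygous hearts. Pln was at 5952, 5826, 5849 and 5623 CPM in the wild type hearts and at 3745, 3748, 4149 and 3820 CPM in the homozygous hearts. Every homozygous value lay below every wild type value, and the fitted difference was a fall of 0.79 ± 0.07 on the log2 scale (SE; edgeR adjusted p = 7.37e-08). Exons of Pln overlap a gene on the other strand over 64.7% of their length, and the strand setting of the counting is not given in the sources used here. Atp2a2, the pump itself, stood at 12457, 11320, 10847 and 11662 CPM in wild type and at 6506, 7853, 8522 and 8632 CPM in homozygous hearts. The groups did not overlap, and homozygous heart 1 was the lowest of the 8. The fall of Atp2a2 was 0.76 ± 0.09 (edgeR adjusted p = 2.45e-06).

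Of 15 tested genes for the pump and its regulators, 8 fell and 2 rose, with a median log2 change of -0.30. With scaling by library size alone 5 fell and 3 rose, at a median of -0.09. The risers were Hax1, a binding partner of phospholamban, at 0.40 ± 0.11, and Prkar2b, a regulatory subunit of protein kinase A, at 0.85 ± 0.29. Prkar2b did not pass without wild type heart 1 or 2 or homozygous heart 1 or 3 (edgeR adjusted p = 0.0504 to 0.0869), nor in the fit of all 39 libraries (0.117). Among the falls were Akap5, an anchor of that kinase, and Ppp1r3a, which targets protein phosphatase 1 to glycogen and the store. Of 25 tested genes for calcium release and buffering, 14 fell and 3 rose. Hrc, which buffers calcium inside the store, went from 793 ± 24.8 to 426 ± 73.4 CPM (SD, n = 4 each). The release channel gene Ryr2 ranged from 1154 to 1323 CPM in wild type and from 755 to 926 CPM in homozygous hearts, again without overlap. This list had 9 falls and 7 rises when scaled by library size alone.

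In beta-adrenergic signalling the changes went both ways, with 5 rises and 8 falls among 18 tested genes. Arrb2, an arrestin that takes activated receptors out of action, rose 2.31-fold from 18.6 ± 1.83 to 49.7 ± 7.81 CPM. Grk5, a kinase that marks receptors for arrestins, rose by 0.76 and Arrb1 by 0.59 on the log2 scale. The alpha-adrenergic receptor gene Adra1a fell 3.22-fold, from 10.6 ± 2.62 to 3.77 ± 1.45 CPM. A second alpha receptor gene, Adra1b, fell by 0.70 and the cyclase gene Adcy6 by 0.49. The split of this list turned to 8 higher and 5 lower when scaled by library size alone.

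**Figure D1:**
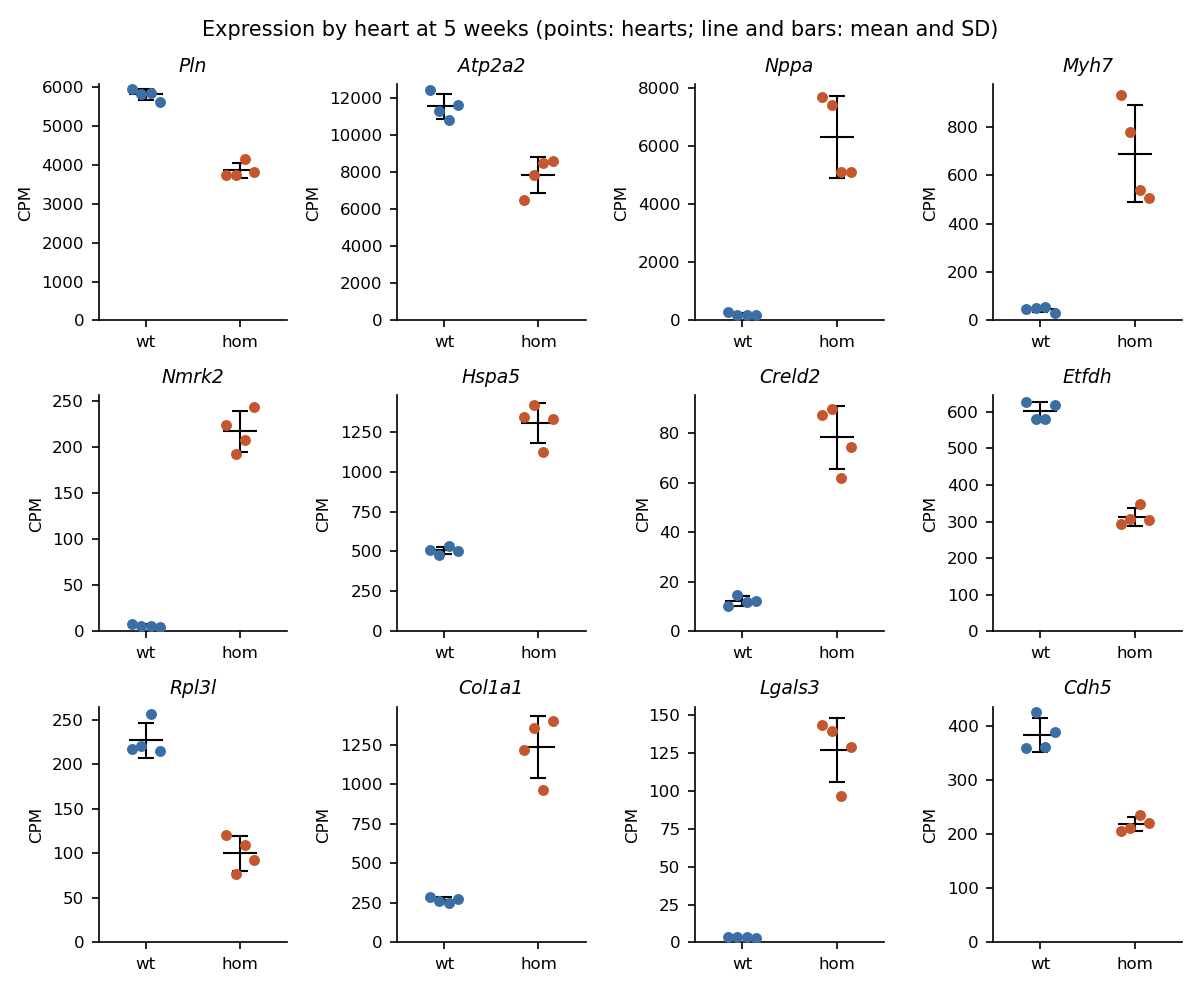
CPM of 12 genes in each of the 8 hearts at 5 weeks (points), with the mean and SD of each group of 4 as line and bars; each vertical axis starts at 0. Pln, Atp2a2, Etfdh, Rpl3l and Cdh5 are lower in every homozygous heart and the other 7 genes are higher in every homozygous heart than in any wild type heart.

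Stress and fetal genes of the heart were higher, with 20 of 25 tested genes up, 1 down and a median log2 change of 1.80. Nmrk2 had the smallest p of the list; it encodes a muscle kinase of a salvage route for the coenzyme NAD. It was at 8.22, 6.10, 5.60 and 5.17 CPM in wild type and at 225, 192, 208 and 244 CPM in homozygous hearts. The 4 homozygous values lay close together and far above all wild type values, a 30.1-fold rise (log2 4.91 ± 0.12, edgeR adjusted p = 1.57e-15). Nppa, the atrial natriuretic peptide, was at 288, 173, 190 and 176 CPM in wild type and at 7677, 7426, 5108 and 5102 CPM in homozygous hearts. Homozygous hearts 1 and 2 were above hearts 3 and 4 for this gene, and Myh7, the slow myosin heavy chain, showed the same order with 930 and 778 against 539 and 508 CPM. Exons of Nppa overlap a gene on the other strand over 61.5% of their length. Fhl2, a binding partner of titin, was the gene of the list that fell, with a log2 change of -0.99.

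By the size of the gain in CPM, the leading genes were Nppa, Ankrd1, Col3a1, Clu, Des, Col1a2, Col1a1, Lyz2, Apoe and Hspa5. Ankrd1, a stress-responsive protein of nucleus and sarcomere, gained 4708 CPM. Clu, the secreted chaperone clusterin, went from 331 ± 20.99 to 1893 ± 408 CPM, and Des, the muscle intermediate filament desmin, from 1586 ± 70.2 to 3046 ± 286 CPM. The losses were led by mt-Co1, a mitochondrially encoded subunit of cytochrome oxidase, whose mean level dropped by 19521 CPM. The mean of mt-Cytb, of complex III, dropped by 8760 CPM and that of Myh6 dropped by 8538 CPM.

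By fold change the leading rise among genes at 5 CPM or more was Sprr1a, a stress protein first known from skin. It was at 0.187 CPM or less in wild type and at 90.9, 123, 55.6 and 118 CPM in homozygous hearts. Spp1, the matrix protein and cytokine osteopontin, went from 0.628 ± 0.230 to 77.2 ± 16.1 CPM. Gdf15, a stress hormone of the TGF-beta family, went from 0.851 ± 0.404 to 48.0 ± 18.1 CPM. In these 3 genes homozygous heart 3 was the lowest of the homozygous hearts and still far above every wild type heart. Star, which carries cholesterol into mitochondria for steroid synthesis, rose 27.7-fold, and Serpina3n, a protease inhibitor of the acute phase, rose 37.5-fold. Among falls Kcnv2, a silent partner subunit of potassium channels, led with 5.92-fold, before Mylk4, Lgals4, a galectin, at 4.84-fold, and Lrat, which stores vitamin A as esters, at 4.80-fold. Efnb3, a ligand of Eph receptors, fell 3.97-fold from 65.2 ± 3.45 to 18.9 ± 5.10 CPM.

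Many pairs of related genes that divide a role between the adult muscle cell and other cells or stages shifted towards the non-muscle or fetal partner. Within each of 22 pairs the share of the first gene was taken from counts per kilobase of gene length. In 17 pairs the 8 hearts fell into separate ranges by genotype (exact two-sided permutation test, p = 0.0286, the smallest that 4 against 4 allows, Benjamini-Hochberg adjusted 0.0370 over 22 pairs). In 16 of the 17 the share of the first gene was larger in homozygous hearts. These 16 include Cpt1a with Cpt1b. Exons of Cpt1b overlap another gene on the same strand over 81.4% of their length, which may lower its counts and so raise the share of Cpt1a. Myh7 made up 0.141 ± 0.0331% of the sum of Myh7 and Myh6 in wild type and 3.09 ± 0.981% in homozygous hearts (SD, n = 4 each), so the fast form remained the main one. Reads of these similar genes may be split by the counting.

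Rpl3l encodes a ribosomal protein of striated muscle, and Rpl3 its general counterpart in the peptide-bond centre of the ribosome. The share of Rpl3 was 21.9%, 19.2%, 17.6% and 18.5% in wild type hearts and 50.1%, 59.5%, 47.5% and 54.3% in homozygous hearts. No homozygous share came near the wild type range, and the mean difference was 33.5 percentage points. Both genes moved, Rpl3 up by 0.82 ± 0.08 and Rpl3l down by 1.39 ± 0.11 on the log2 scale.

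In pairs of sugar metabolism the share of the first gene was also larger, though not all of these pairs, such as Ldha with Ldhb, divide into non-muscle and muscle forms. The glucose transporter Slc2a1 had 2.93% of the sum with the insulin-responsive Slc2a4 in wild type and 12.0% in homozygous hearts. The general enolase Eno1 went from 2.05% to 5.63% of its sum with the muscle enolase Eno3. Lactate dehydrogenase A, Ldha, went from 21.3% to 34.0% of its sum with Ldhb, and the platelet-type phosphofructokinase Pfkp from 2.40% to 5.94% with the muscle type Pfkm. The brain-type creatine kinase Ckb made up 2.37% and 5.53% of the sum with Ckm. Subunits of cytochrome oxidase that have liver and heart forms moved alike, with Cox7a2 from 26.1% to 34.5% over Cox7a1 and Cox8a from 13.5% to 20.1% over Cox8b. With TMM scaling Cox7a2 itself fell, by 0.39 on the log2 scale. Cox8a and Ckb did not pass the test (edgeR adjusted p = 0.479 and 0.391) but rose with scaling by library size alone. Larger shares in these pairs therefore need not mean a rise of the first gene. Shares in which the wild type and homozygous ranges overlapped included those of Myl7, Myl4 and Tpm4 and the pair Col1a1 with Col3a1. The share of Actg1, gamma actin, was the one that became smaller, from 12.8% to 9.78% of its sum with Actb. Non-muscle cells also express many of the first genes, and markers of fibroblasts and macrophages were higher in the same hearts; their part in these shares was not tested.

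**Figure D2:**
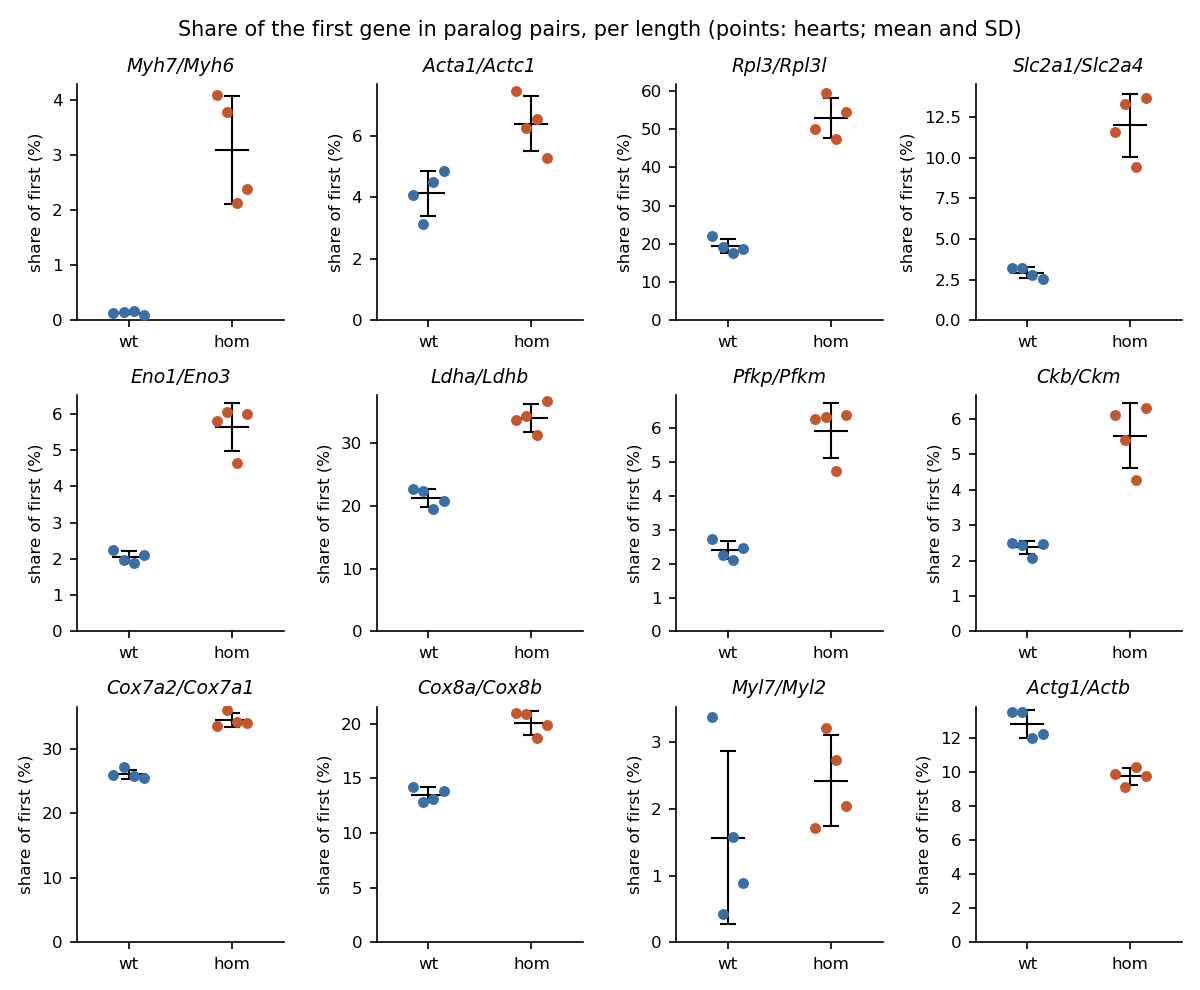
Share of the first gene in 12 pairs of related genes, in percent of both, from counts per kilobase (points: 8 hearts; line and bars: mean and SD, n = 4); each vertical axis starts at 0. The share of Rpl3 rises from 19.3% to 52.8% and that of Ldha from 21.3% to 34.0%, while the ranges of Myl7 with Myl2 overlap and the share of Actg1 is smaller.

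With TMM scaling, genes of the filaments, of ion channels and of cardiac transcription factors fell more often than they rose, and those of the Z-disc and the intercalated disc were divided. Of 20 thick and thin filament genes 14 fell and 1 rose, and 8 fell with scaling by library size alone. Mylk4, a cardiac kinase of myosin light chain, went from 182 ± 11.3 to 37.6 ± 10.4 CPM, a 5.58-fold fall. Tcap, which caps titin at the Z-disc, went from 1188 to 572 CPM, while Synpo2l, an actin-binding Z-disc protein, rose from 166 to 428 CPM, among 10 falls and 7 rises in 24 Z-disc genes. Library-size scaling turned this split to 6 falls and 12 rises. Of 22 potassium channel genes 12 fell and 2 rose, and of 21 sodium and other channel genes 11 fell and 4 rose. On library size alone the potassium channel list had 9 falls and 4 rises and the other channel list 6 falls and 4 rises. Clcn1, the muscle chloride channel, fell 3.94-fold, and the pacemaker channel gene Hcn2 fell by 1.11 on the log2 scale. Of 17 intercalated disc genes, 6 fell, led by Tjp1, a scaffold of cell junctions, at -0.79, and 3 rose, among them Pkp2 at 0.29. On library size alone 4 fell and 6 rose, and 1 rise was left without wild type heart 2 or 3. Cardiac transcription factors had 13 falls and no rise among 25 tested genes, with 7 rises and 6 falls with scaling by library size alone. Hopx, a cofactor of serum response factor, was at 198, 262, 254 and 240 CPM in wild type and at 103, 102, 120 and 105 CPM in homozygous hearts, and it fell under both scalings.

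Genes for protein folding in the endoplasmic reticulum (ER) were higher in nearly every case. When unfolded protein builds up in the ER, the sensors ATF6 and IRE1 raise chaperones and degradation factors, and the kinase PERK acts through the factor ATF4 on amino acid supply. Of 30 ER chaperone and folding genes 29 rose and 1 fell, with a median log2 change of 1.04. Hspa5, the main ER chaperone BiP, was at 510, 480, 537 and 502 CPM in wild type and at 1340, 1418, 1123 and 1330 CPM in homozygous hearts. The homozygous values all lay above 1100 CPM, with heart 3 the lowest of them, and the fitted rise was 2.22-fold (log2 1.15 ± 0.07, edgeR adjusted p = 3.94e-10). Pdia4, a disulfide isomerase, rose 3.45-fold. P4hb, a protein disulfide isomerase that is also a subunit of the collagen hydroxylase, went from 248 to 781 CPM.

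The steps around folding moved with it. Of 45 tested genes for translocation into the ER, glycosylation and vesicle coats, 41 rose, with a median log2 change of 0.51. Spcs3, of the signal peptidase, went from 56.3 to 179 CPM, and Ostc and Ddost, of the oligosaccharyl transferase, rose by 1.20 and 0.91. Of 26 genes for ER-associated degradation 18 rose and none fell. The factor gene Xbp1, which IRE1 activates by splicing, rose by 0.77. In the ATF4 and CHOP branch 12 of 19 rose and 2 fell, with Atf4 itself at 0.71 and Ddit3, which encodes CHOP, at 0.94. Transfer RNA synthetase genes rose in 10 of 20 cases, or in 17 when scaled by library size alone, at a median of 0.18. In serine, one-carbon and amino acid synthesis 13 of 22 rose and 3 fell, led by Mthfd2 of mitochondrial folate metabolism, which rose 8.42-fold, and by Psat1 of serine synthesis, which rose 4.55-fold. Slc7a11, the cystine importer, had 1 count in all wild type libraries together and 149 in the homozygous ones, a ratio per depth of 160.9 with a 95% exact interval of 28.4 to 6398. The hormone gene Fgf21 had 1 and 72 counts, a ratio of 77.8 with an interval of 13.5 to 3114. These intervals cover counting error only. Both ratios use library depth without TMM scaling, and the fit gave log2 changes of 6.56 for Slc7a11 and 5.53 for Fgf21.

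Promoters were searched for the known target elements of these pathways, and 5 are shown because their genes rose and hold an element. The promoter windows run from 250 bases before to 50 after the RefSeq start (GRCm38.p6) and were found for 10213 tested genes. The ER stress element was searched on both strands as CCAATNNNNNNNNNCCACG. It was in 16 of the 10213 genes (0.16%), in 7 of 24 chaperone genes (29.2%) and in 2 of 20 degradation genes. Its first letters alone, CCAAT, were in 42.5% of promoters. Of the 16 genes, 11 rose and 2 fell. The amino acid response element bound by ATF4 was searched as TGATGNAA and was in 287 genes (2.81%), of which 87 rose and 73 fell. It was in 6 of 18 genes of the ATF4 and CHOP branch (33.3%), of which 5 rose and 1 was not called. It was in 5 of 18 of amino acid synthesis (27.8%), of which 3 rose and 1 fell, and in 5 of 12 tRNA synthetase genes (41.7%), of which 2 rose and 3 were not called. The second ER stress element, ERSE-II, was in 8 genes, of which 4 rose and none fell, and TCAAGGTCA, the element of estrogen-related receptors, was in 35 genes, of which 8 rose and 8 fell, and in none of 23 fatty acid oxidation genes. A match describes letters and is not a site shown to be used. The windows below give the 250 bases before the start, 5′ to 3′ on the gene's strand, with the element in capitals. Hspa5 lies at chr2:34771840-34772089 on the plus strand, Creld2 at chr15:88819396-88819645 on the plus strand and Derl3 at chr10:75893148-75893397 on the plus strand. Asns, asparagine synthetase, lies at chr6:7693210-7693459 on the minus strand and Slc7a11 at chr3:50443614-50443863 on the minus strand.
Hspa5: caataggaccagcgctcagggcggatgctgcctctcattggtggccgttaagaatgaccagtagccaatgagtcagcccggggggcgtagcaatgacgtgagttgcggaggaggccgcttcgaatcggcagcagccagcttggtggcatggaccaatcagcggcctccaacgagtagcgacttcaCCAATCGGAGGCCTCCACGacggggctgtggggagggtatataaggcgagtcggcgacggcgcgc
Creld2: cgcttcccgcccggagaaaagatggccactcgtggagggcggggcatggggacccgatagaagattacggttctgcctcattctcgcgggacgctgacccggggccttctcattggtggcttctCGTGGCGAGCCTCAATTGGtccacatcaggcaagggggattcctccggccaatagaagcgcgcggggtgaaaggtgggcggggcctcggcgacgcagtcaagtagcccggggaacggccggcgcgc
Derl3: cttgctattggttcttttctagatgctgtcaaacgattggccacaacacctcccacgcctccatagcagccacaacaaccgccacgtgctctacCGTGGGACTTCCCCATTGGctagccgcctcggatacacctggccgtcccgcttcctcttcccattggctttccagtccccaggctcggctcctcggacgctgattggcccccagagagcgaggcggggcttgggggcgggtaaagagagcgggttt
Asns: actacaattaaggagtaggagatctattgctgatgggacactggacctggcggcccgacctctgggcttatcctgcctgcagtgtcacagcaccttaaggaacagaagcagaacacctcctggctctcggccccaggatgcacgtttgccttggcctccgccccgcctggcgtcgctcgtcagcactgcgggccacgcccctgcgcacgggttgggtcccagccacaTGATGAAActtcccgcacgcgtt
Slc7a11: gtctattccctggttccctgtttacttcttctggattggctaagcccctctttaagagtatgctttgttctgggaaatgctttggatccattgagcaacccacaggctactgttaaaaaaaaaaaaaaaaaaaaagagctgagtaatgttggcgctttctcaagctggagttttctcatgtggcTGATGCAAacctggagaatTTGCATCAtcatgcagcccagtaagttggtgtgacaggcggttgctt

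In Hspa5 the element reads on the gene's strand, and in Creld2 and Derl3 it reads on the other strand. Creld2, a chaperone of the ER, was at 10.2, 14.8, 11.7 and 12.3 CPM in wild type and at 87.3, 89.6, 62.0 and 74.5 CPM in homozygous hearts. Derl3, a channel component of ER-associated degradation, was at no more than 0.187 CPM in wild type and at 40.4, 40.3, 15.1 and 29.8 CPM in homozygous hearts. In both genes homozygous heart 3 was the lowest of the homozygous hearts. Asns rose 3.28-fold from 3.58 ± 0.589 to 13.6 ± 1.12 CPM.

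Machinery that makes and removes proteins in the cytosol was less uniform. Of 53 tested cytosolic ribosomal protein genes 51 rose, with a median log2 change of 0.38. The falls were Rpl3l and Rps2, at -1.39 and -0.29, and 1 fall was left with scaling by library size alone. Rpl10 went from 170 to 366 CPM. Of 26 ribosome biogenesis genes 15 rose and 2 fell, or 22 and 0 with scaling by library size alone, with Myc, a driver of ribosome production and growth, up 5.41-fold from 2.99 to 18.6 CPM. Lysosome genes rose in 30 of 36 cases, with a median of 0.74. Ctss, a protease of macrophage lysosomes, went from 23.8 ± 3.16 to 196 ± 34.1 CPM. Autophagy genes split evenly into 7 rises and 7 falls among 25, with Sqstm1, the adaptor p62, up 1.95-fold. These are 28.0% each way, beside 22.3% higher and 21.4% lower over all genes tested. The proteasome had 10 rises and 1 fall among 38 genes and a median of 0.05, and its share of 26.3% higher lay near that of all genes. With scaling by library size alone the autophagy list had 14 rises and 3 falls and the proteasome list 31 rises and 1 fall. Cytosolic heat shock genes rose in 15 of 30 cases and fell in 1, Fkbp4, at -0.86, and 23 rose with scaling by library size alone.

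Mitochondrial energy genes were lower across pathways. Fatty acid oxidation, the main fuel route of the adult heart, had 27 falls among 28 genes and no rise, with a median log2 change of -0.79. Etfdh, which hands electrons from that route to ubiquinone, was at 628, 581, 579 and 618 CPM in wild type and at 292, 307, 347 and 305 CPM in homozygous hearts. The groups were far apart, and the fall was 2.21-fold (log2 -1.15 ± 0.07, edgeR adjusted p = 5.76e-10). Genes for fatty acid uptake and storage fell in 19 of 25 cases. Scd4, a desaturase, fell 4.14-fold with wild type values from 21.5 to 43.0 CPM and homozygous values from 6.18 to 10.99 CPM.

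Of the respiratory chain, 34 of 36 complex I genes fell, as did 14 of 14 of complexes II and III, 11 of 14 of complex IV and 14 of 16 of the ATP synthase. Their median log2 changes were -0.49, -0.54, -0.41 and -0.46. Atpif1, which encodes an inhibitor of the ATP synthase rather than a subunit, was the gene of the ATP synthase list that rose, by 0.52. Of its exon length 33.7% overlaps a gene on the other strand. The list of the TCA cycle and pyruvate entry, which includes regulators of pyruvate dehydrogenase, had 25 falls and 2 rises among 27 genes. Pdk3, a kinase that shuts off pyruvate dehydrogenase, rose by 0.93. Breakdown of branched-chain amino acids had 17 falls among 18 genes, led by Ppm1k, the phosphatase that activates the pathway, at -0.96. With scaling by library size alone the falls numbered 25 in fatty acid oxidation and 25 in complex I. With that scaling they numbered 22 in the TCA cycle and pyruvate entry list and 15 in branched-chain breakdown. Mitochondrial ribosomal proteins had 22 falls and 1 rise among 36 genes with a median of -0.24, in contrast to the cytosolic ones, but 8 falls and 3 rises with scaling by library size alone. Of complex IV 9 then fell and 2 rose. Of 25 metabolic transcription factors and coactivators 16 fell and 2 rose, or 10 and 3 with that scaling. Rxrg, a retinoid receptor that pairs with the PPAR factors, fell by 1.04, Klf15 by 0.85 and Perm1, a muscle regulator of mitochondrial genes, by 0.69.

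Glucose routes divided. Of 32 genes for glucose uptake, glycolysis and glycogen 10 rose and 12 fell, which the paired shares above describe by isoform. On library size alone 13 rose and 9 fell, and the median log2 change went from -0.09 to 0.11. The pentose phosphate, hexosamine and polyol routes had 9 rises and 3 falls among 17 genes. G6pdx, the entry enzyme of the pentose phosphate route, rose by 0.99 and Pgd of the same route by 0.84. Gfpt1, the entry enzyme of hexosamine synthesis, rose by 0.80 and Sord, sorbitol dehydrogenase, fell by 0.76.

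**Figure D3:**
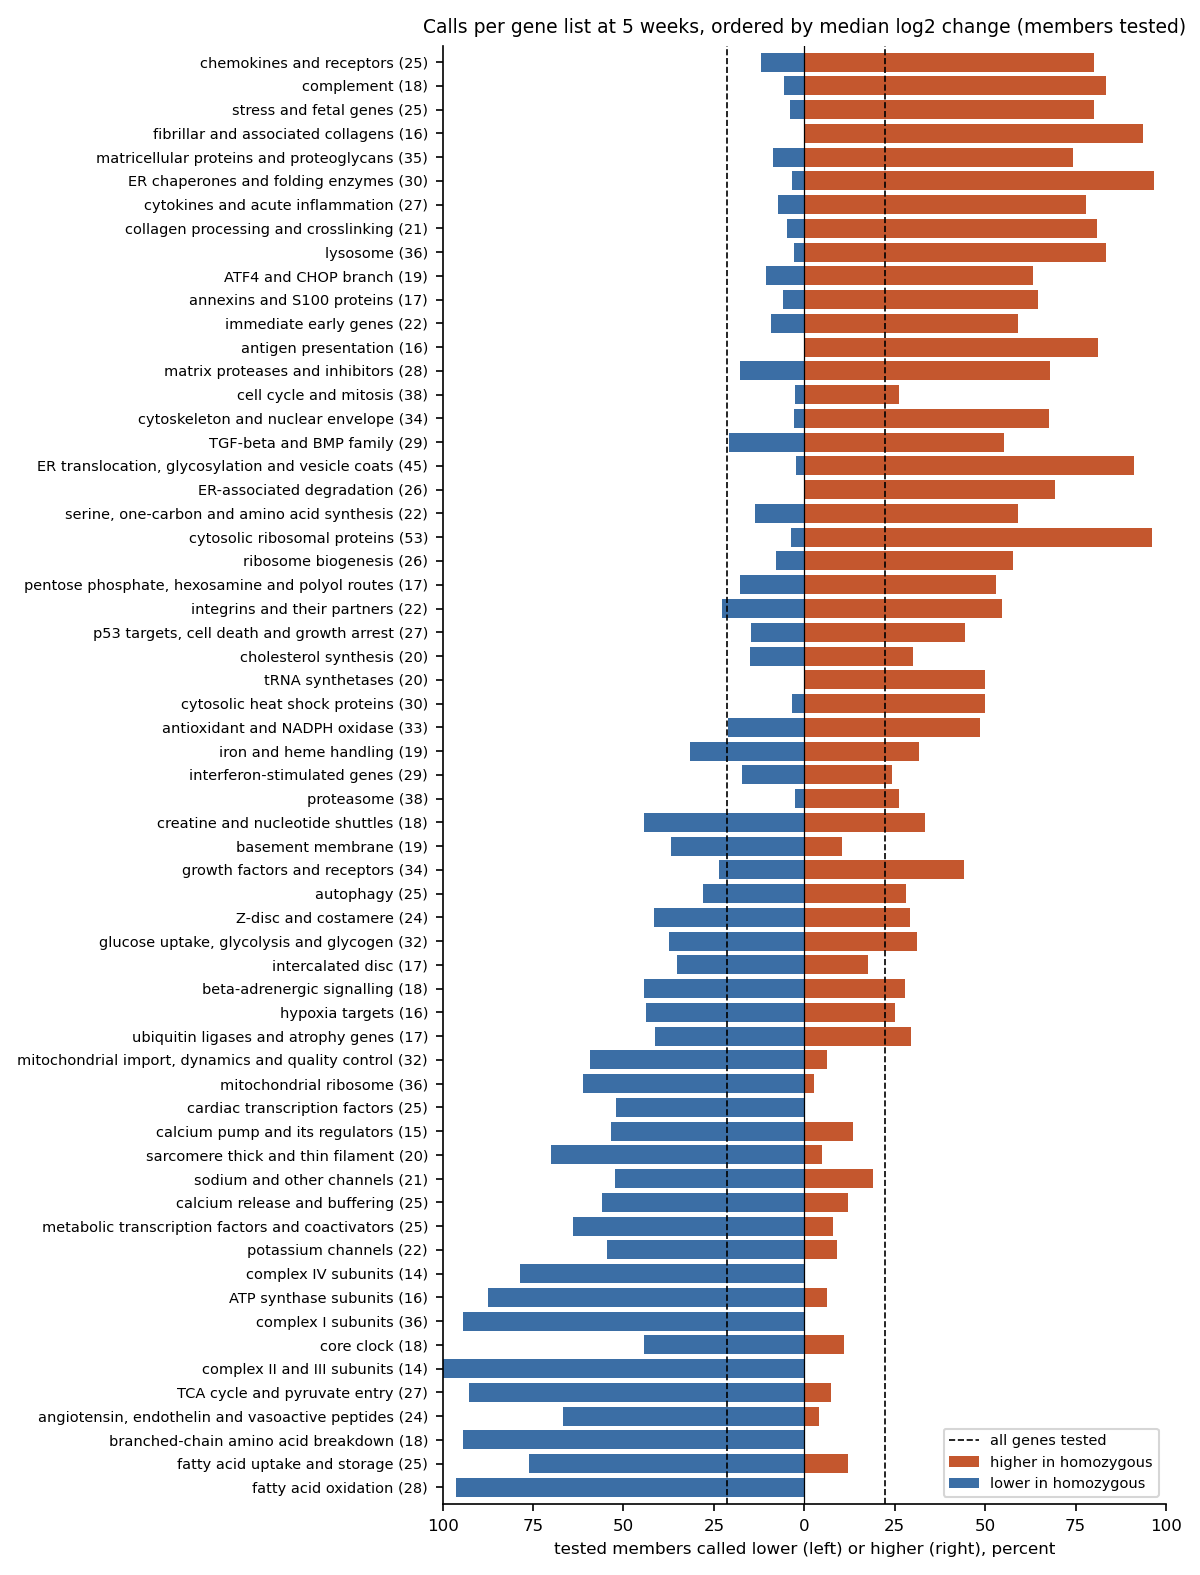
Percent of tested members called higher (right, orange) or lower (left, blue) in homozygous hearts for gene lists with 14 or more tested members, ordered by median log2 change, with the number tested in brackets; dashed lines give the share over all genes tested, 22.3% higher and 21.4% lower. Lists of matrix, inflammation and ER folding lie at the top and fatty acid oxidation, with 27 of 28 genes lower, at the bottom.

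Collagen and matrix genes were higher, with a division between interstitial and basement membrane components. Fibrillar and associated collagen genes rose in 15 of 16 cases, and their median log2 change was 1.38. Col1a1 was at 286, 259, 246 and 276 CPM in wild type and at 1217, 1357, 965 and 1401 CPM in homozygous hearts. All homozygous hearts were at least 3 times the highest wild type heart, and the fitted rise was 4.00-fold (edgeR adjusted p = 8.57e-12). Of 19 basement membrane genes 2 rose and 7 fell, with a median of -0.00. Col4a1 was at 1545 and 1778 CPM and did not pass the test, and Agrn, agrin, fell by 0.79. On library-size scaling alone, 8 basement membrane genes rose and 5 fell. Processing and crosslinking enzymes had 17 rises among 21 genes. Lox, lysyl oxidase, was at 7.85, 5.66, 9.66 and 10.01 CPM in wild type and at 60.4, 66.2, 49.0 and 69.99 CPM in homozygous hearts, a 6.39-fold rise. Matricellular proteins and proteoglycans had 26 rises and 3 falls among 35 genes. Postn, periostin, which activated fibroblasts secrete, was at 724, 796, 463 and 888 CPM in homozygous hearts and at 81.6 to 121 CPM in wild type. Homozygous heart 3 was again the lowest, and the groups did not overlap.

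Proteases and their inhibitors had 19 rises and 5 falls among 28 genes, with Mmp14, a membrane collagenase, up 2.44-fold and Timp3, an inhibitor bound to matrix, down by 0.79 on the log2 scale. In the TGF-beta and BMP family 16 of 29 rose and 6 fell, or 21 and 4 with scaling by library size alone. Tgfb2 went from 13.3 ± 1.55 to 53.7 ± 10.2 CPM, and the co-receptor gene Eng, which endothelial cells express, fell by 0.68. Among growth factors and receptors, 15 of 34 rose and 8 fell. Igf1 was at 21.7 to 24.8 CPM in wild type and at 72.8 to 91.3 CPM in homozygous hearts, a 3.14-fold rise, and Hbegf rose 2.77-fold. The genes of vasoactive peptides went the other way, with 16 of 24 tested genes lower and 1, Ace, the angiotensin converting enzyme, higher. Apln, the peptide apelin, was at 33.5, 38.4, 32.4 and 39.6 CPM in wild type and at 7.86, 8.85, 8.48 and 16.4 CPM in homozygous hearts. Homozygous heart 4 stood apart from the other 3 but still below all wild type hearts. Apln fell 3.97-fold, and its receptor gene Aplnr and the angiotensin receptor gene Agtr1a fell by 0.85 and 0.93 on the log2 scale.

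Genes of innate immunity were higher. Of 25 tested chemokine and receptor genes 20 rose and 3 fell, with a median log2 change of 1.94. Ccl8, a monocyte attractant, was at 0.841 CPM or less in wild type and at 12.0, 10.9, 7.56 and 12.4 CPM in homozygous hearts. Ccr2, the receptor of recruited monocytes, rose 9.82-fold, and Cxcl12, a chemokine of vessel walls and stroma, fell by 0.60. Complement genes rose in 15 of 18 cases, with C3ar1, a receptor for a fragment of complement C3, up by 2.33 on the log2 scale. Antigen presentation genes rose in 13 of 16 cases, among them Cd74, the chain that escorts class II molecules, from 83.8 to 294 CPM. Cytokine and acute inflammation genes rose in 21 of 27 cases and fell in 2. Socs3, an inhibitor of cytokine signalling, rose 4.82-fold, and Ctf1, the cytokine cardiotrophin 1, fell by 1.55. Interferon-stimulated genes had 7 rises and 5 falls among 29, a share of 24.1% higher that lay near the 22.3% of all genes tested. This split was 14 and 2 with scaling by library size alone, 11 and 5 with voom and 2 and 2 in the fit of 23 libraries. Leaving out single libraries gave 6 to 11 rises and 3 to 7 falls, with the change past 1.5 times without wild type heart 3.

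Markers of cell types in the ventricle moved in opposite directions. Of 12 cardiomyocyte markers 11 fell, and their summed level was 91583 to 95019 CPM in wild type and 66839 to 75970 CPM in homozygous hearts. Macrophage markers rose in 10 of 12 cases and fell in 1, from a sum of 455 to 493 CPM to one of 1881 to 2446 CPM. Lgals3, galectin 3, which macrophages and other stressed cells make, was at 3.74, 3.45, 3.52 and 2.92 CPM in wild type and at 144, 140, 96.8 and 129 CPM in homozygous hearts, with no overlap. Of 11 tested markers of recruited monocytes and lipid-laden macrophages 10 rose, with a median log2 change of 3.15, and Trem2, their lipid receptor, went from 3.03 ± 0.759 to 30.9 ± 1.85 CPM. Resident macrophage markers had 6 rises and 2 falls among 9, with a median of 0.54, and 6 and 1 on library size alone. Mrc1, the mannose receptor, rose 2.12-fold, and Lyve1, a marker of resident macrophages and lymphatic vessels, fell by 0.70 but did not pass in the fit of 23 libraries (edgeR adjusted p = 0.0657). T and NK cell markers summed to 4.11 to 6.77 and 12.6 to 16.9 CPM, and of neutrophil markers 1 of 10 passed the filter on low counts.

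Fibroblast markers rose in 10 of 12 cases and fell in 1, Scara5, at -1.03. Activated fibroblast markers rose in 11 of 12 cases with a median of 2.38, and Acta2, the smooth muscle actin of that list, fell by 0.76. Their sum was 579 to 699 CPM in wild type and 1207 to 2121 CPM in homozygous hearts, with homozygous heart 3 the lowest. Endothelial markers fell in 11 of 12 cases and those of capillary and arterial endothelium in 10 of 11, with medians of -0.69 and -0.71. Cdh5, the cadherin of endothelial junctions, was at 358, 424, 360 and 387 CPM in wild type and at 206, 212, 235 and 220 CPM in homozygous hearts. The ranges were clearly apart, and the fall was 2.02-fold. Car4, a carbonic anhydrase of capillaries, fell 2.86-fold. Pericyte markers fell in 10 of 10 cases and smooth muscle markers in 6 of 9, with 1 rise. These sums and the gene lists of the same direction move together in the same 8 hearts, and their part in the results on matrix, immune, vascular and metabolic genes was not tested. Some genes are members of both kinds of list. Postn is in the activated fibroblast and matricellular lists, C1qa in the macrophage and complement lists and Fabp4 in the capillary and fatty acid uptake lists. Part of the shared direction is therefore the same genes counted again.

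**Figure D4:**
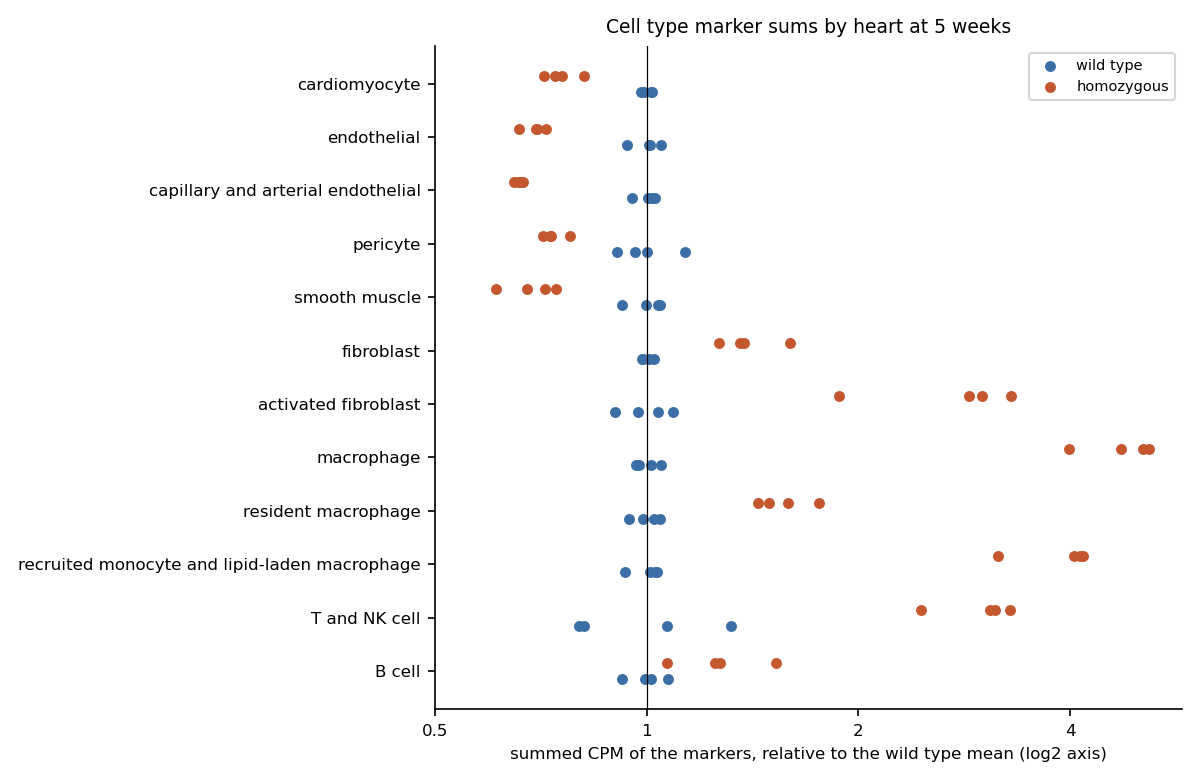
Summed CPM of the markers of 12 cell types in each of the 8 hearts, relative to the mean of the 4 wild type hearts, on a log2 axis. Homozygous hearts lie to the left for cardiomyocyte, endothelial and mural markers and to the right for fibroblast and macrophage markers, and the B cell sums of the groups overlap.

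Cell cycle, cytoskeleton and clock genes changed in part. Cell cycle genes had 10 rises and 1 fall among 38 with a median log2 change of 0.55, a share of 26.3% higher beside 22.3% of all genes. Homozygous heart 4 was highest for Anln, a protein of cell division, at 19.2 CPM against 6.97 to 8.39 CPM in the other homozygous hearts. Without this heart the fitted change of Anln went from 1.22 to 0.77. Leaving out single libraries gave 4 to 17 rises in this list, with changes past 1.5 times without wild type heart 3 or any 1 homozygous heart. The fit of 23 libraries gave 5 rises, scaling by library size alone gave 22, the fit with the replicate number as a block gave 14 and no filter on low counts gave 21. Among targets of p53, Cdkn1a, a cell cycle inhibitor, rose 2.29-fold with 86.9 to 103 CPM in homozygous hearts. Cytoskeleton genes had 23 rises and 1 fall among 34, and Cotl1, an actin-binding protein of white cells, rose 3.85-fold. Clock genes had 8 falls and 2 rises among 18, or 8 and 4 on library size alone. Hlf fell by 1.46 and Bhlhe40 rose by 0.72, and the time of tissue collection is not given in the sources used here.

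The genes that varied most among homozygous hearts were Cxcl14, Dbp, Derl3, Per3, Prnd and Thbs4, chosen by the SD of log2 CPM among called genes at 20 CPM or more. Exons of Prnd overlap another gene on the same strand over 97.2% of their length. Dbp, a clock output gene, was at 31.2, 98.0, 36.8 and 72.9 CPM in homozygous hearts and at 102 to 146 CPM in wild type. Per3, of the clock loop, followed with 15.5, 39.9, 15.2 and 23.4 CPM, and its range overlapped the wild type range. Homozygous hearts 1 and 3 were low for both clock genes and hearts 2 and 4 higher. The falls of Dbp and Per3 did not hold in every fit, with an edgeR adjusted p of 0.0800 for Dbp in the fit of all 39 libraries and of 0.0729 for Per3 with robust dispersion. Thbs4, a matricellular protein, was at 92.4, 80.5, 36.1 and 110 CPM, with heart 3 the lowest.

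The genotype effect at 5 weeks was then set against the effects at 3 and 8 weeks in a fit of 23 libraries of wild type and homozygous hearts (4 libraries each, with 3 wild type hearts at 8 weeks). Library names and depth differ between 5 weeks and the other ages, so differences of effects were tested and levels were not compared across ages. The effect differed between 5 and 3 weeks for 2805 of 14748 genes (19.0%), 1538 higher and 1267 lower at 5 weeks. Library-size scaling alone gave 2504 and 525. Between 8 and 5 weeks it differed for 4112 genes (27.9%), 2051 higher and 2061 lower at 8 weeks, or 1588 and 2398 with scaling by library size alone.

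Many genes of the 5-week response had a larger effect at 5 than at 3 weeks. The difference of effects was -0.89 ± 0.16 for Pln, 3.72 ± 0.69 for Nppa and 3.20 ± 0.35 for Myh7 on the log2 scale (edgeR adjusted p = 0.000317, 0.000596 and 2.20e-06). The effect on Nppa at 3 weeks includes 1 homozygous heart at 1621 CPM beside a lowest value of 214 CPM. For Atp2a2 and Ryr2 the difference was -0.52 and -0.47 and did not pass the test (edgeR adjusted p = 0.0938 and 0.0826); both passed without the homozygous 3-week heart 3, at 0.0414 and 0.0309. ER chaperone genes differed upward in 26 of 30 cases, lysosome genes in 24 of 36, complement genes in 14 of 22, and fatty acid oxidation genes downward in 20 of 28. Of endothelial markers 9 of 12 differed downward. With scaling by library size alone these 5 counts were 27, 27, 14, 17 and 7.

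From 5 to 8 weeks the lists parted. The effect grew further in the downward direction for Pln, by 0.67 ± 0.16, for Atp2a2, by 0.89 ± 0.22, and for Rpl3l, by 2.12 ± 0.35 (edgeR adjusted p = 0.00328, 0.00487 and 0.000106). Cytosolic ribosomal genes differed upward in 39 of 53 cases, or 26 with scaling by library size alone, and matricellular genes in 25 of 35. Potassium channel genes differed downward in 14 of 22 cases. ER chaperones differed upward in 3 and downward in 5 of 30 cases, together near the 27.9% of all genes tested that differed in either direction. Hspa5 had a difference of -0.34 ± 0.27 that did not pass the test. At 8 weeks homozygous heart 1 was at 581 CPM for Hspa5 and the other homozygous hearts were at 1345 to 2018 CPM. Markers of capillary and arterial endothelium differed upward in 8 of 11 cases, which puts the genotype effect on these genes above that at 5 weeks, and vasoactive peptide genes differed upward in 13 of 25. Comp, a thrombospondin family member best known from cartilage, was at 7.92 ± 3.23 CPM in homozygous hearts at 5 weeks beside 2.82 ± 0.781 in wild type, and its effect was larger at 8 weeks by 5.40 ± 0.43. Itgb6, an integrin that activates TGF-beta, did not pass the test at 5 weeks at 18.5 ± 1.87 and 21.6 ± 2.82 CPM and had a lower effect at 8 weeks, by -5.15 ± 0.44.

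**Figure D5:**
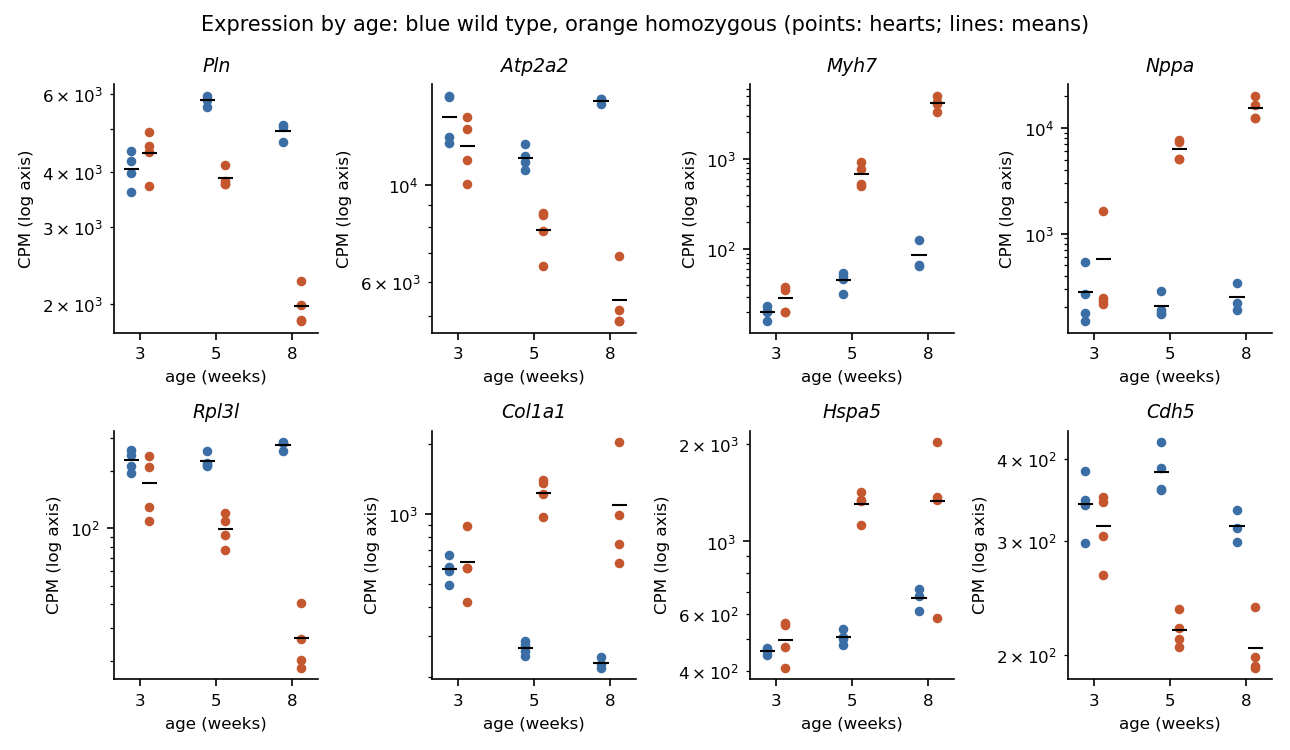
CPM of 8 genes in each heart of wild type (blue) and homozygous (orange) mice at 3, 5 and 8 weeks, on log axes, with group means as lines. At 3 weeks the genotypes overlap for these genes, and at 5 weeks they are apart for all 8; 1 homozygous heart at 8 weeks lies below the wild type hearts for Hspa5.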

How the data were processed

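Poly(A) RNA of 39 mouse left ventricle samples was sequenced, and the authors deposited 1 table of raw read counts per gene. STAR 2.7.3a, featureCounts of Subread 2.0.0 and the build mm10 are named in the submitters' processing notes. For the annotation release and strand setting nothing is given in the sources used here. Samples were grouped by their titles, and 36429 of 38293 gene IDs were named through GENCODE vM21. The 8 libraries held 9.78 M to 11.98 M counts, which limits precision for low genes. Genes were filtered with filterByExpr, scaled by TMM and tested in edgeR 4.0.16 (R 4.3.3) by its quasi-likelihood method with Benjamini-Hochberg adjustment at 0.05. The test at 5 weeks used only the 8 libraries. The same test on 23 libraries compared the genotype effect between ages. The code was tested on simulated counts. Alternatives used RLE or library-size scaling, other filters, DESeq2 1.42.0, limma 3.58.1 (voom), robust dispersion, a replicate block, wider fits and fits leaving out each library. Related genes were compared by exact permutation tests of shares.

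The gene lists and the genes described were chosen with earlier results of these data known. Genes named were fixed anchors, the largest gains and losses in CPM and fold, the most variable genes, the largest differences between ages, and from each list the 3 called genes with the smallest p in the main direction, the 1 in the other direction and the most abundant gene. Akap5, Arrb1, Asns, Ddit3, Fgf21, Grk5, Prkar2b, Rps2 and Slc7a11 lie outside this rule and were chosen after their values were seen. Myl7, Myl4 and Sln are atrial markers, and paired genes are named as listed. Results for some genes that the rule or the pairs name are not reported here.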

Additional observations from a re-analysis of the deposited data

Results flagged for a closer look

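For each named gene and each paired share, the highest and the lowest heart of a group of 4 were compared with the others by the gap to the nearest heart divided by the whole range. A ratio above Dixon's 95% critical value occurs by chance in about 1 in 20 groups, and this limit was passed in 24 of 354 groups (6.78%). In homozygous hearts, heart 4 stood above the others for Anln (ratio 0.884) and for Apln (0.884), heart 1 above the others for Cox8a (0.878) and below them for Ppp1r3a (0.843), heart 3 above for Hopx (0.849) and below for Atf3 (0.857) and the share of Pfkp with Pfkm (0.920), and heart 2 above for Pkp2 (0.864). In wild type, heart 1 stood apart at 288 CPM for Nppa (0.859), against 173 to 190 CPM in the other wild type hearts, high for Pam (0.86), and low for Hax1 (0.941), Lyve1 (0.874), Ppp1r3a (0.833), Tnni1 (0.892) and the share of Tnni1 with Tnni3 (0.846). Wild type heart 3 was low for Col4a1 (0.837) and for the share of Ckb with Ckm (0.891), and high for Cox7a2 (0.930), Cox8b (0.843), Tnni3 (0.851) and Rpl3l (0.846). Wild type heart 4 held the single count of Fgf21 and of Slc7a11 (1.0 each) and none of Sprr1a (0.946).

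The genotype effect differed between ages by the interaction test of edgeR. Between 5 and 3 weeks this held for 2805 genes, among them Pln at -0.892, Nppa at 3.717, Myh7 at 3.203, Hspa5 at 1.059, Comp at 2.034, Col1a1 at 1.93 and Cdh5 at -0.881 on the log2 scale. Rpl3l differed by -0.962 and lost this call under 13 of the alternatives. Between 8 and 5 weeks the effect differed for 4112 genes, among them Pln at -0.675, Atp2a2 at -0.893, Rpl3l at -2.118, Comp at 5.40 and Itgb6 at -5.147. Myh7 differed by 1.742, which did not pass in the fit of all 39 libraries (edgeR adjusted p = 0.104).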

How the results depend on the processing

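Scaling by library size alone changed the split at 5 weeks to 5388 higher and 1411 lower genes, and that of the difference between 5 and 3 weeks to 2504 and 525. Between 8 and 5 weeks it gave 1588 higher and 2398 lower. The other alternatives kept these counts within 1.5 times. Leaving out 1 library at a time gave 5254 to 5873 genes at 5 weeks, 2151 to 3197 for the difference between 5 and 3 weeks and 3316 to 4659 for that between 8 and 5 weeks. Of 146 named genes called at 5 weeks, 133 were called in the same direction under every one of the 19 settings. A further 3 kept their call wherever they were tested: mt-Co1 and mt-Cytb, which the scaling without mitochondrially encoded genes leaves out, and Fgf21, which the filter of at least 1 CPM in 4 libraries removes. In all, 10 lost their call under at least 1 (Actg1, Anln, Dbp, Dkk3, Ldha, Lyve1, Per3, Prkar2b, Prnd and Rps2), and 0 reversed. The cause was not tested. Small counts in gene lists moved by over 1.5 times when 1 library was left out. Rises in calcium release were 0 to 5 (wild type heart 3, homozygous hearts 3 and 4), those of potassium channels 1 or 2 (wild type 3 and 4, homozygous 1 and 3) and those of metabolic transcription factors 1 or 2 (wild type 1, 3 and 4, homozygous 4). Rises of cardiac transcription factors were 0 or 1 (wild type 1, homozygous 2), of vasoactive peptides 1 or 2 (homozygous 4) and of smooth muscle markers 0 or 1 (wild type 1 and 2, homozygous 3). The rise in the mitochondrial ribosome list was lost without any 1 library. Falls were 0 or 1 for ER chaperones (wild type 1, homozygous 1) and for macrophage markers (wild type 1, 2 and 4, homozygous 2 and 3), and 1 or 2 for heat shock genes (wild type 1 and 3, homozygous 4), fibroblast markers (homozygous 1) and resident macrophage markers (the same libraries as for macrophages). Immediate early genes had 1 to 3 falls (wild type 2, homozygous 4).

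The labels name no pairing of the hearts. The correlations of deviations between hearts of the same replicate number were 0.0066, 0.0474, 0.0386 and 0.0996. Those between hearts of different numbers ran from -0.138 to 0.119, a range that holds all of the former, so these values cannot decide whether the numbers pair the hearts. With the replicate number as a block, 5901 genes were called at 5 weeks, 2834 between 5 and 3 weeks and 4318 between 8 and 5 weeks. With 1 heart left out, the exact test of the paired shares has 4 hearts against 3 and cannot reach 0.05. Total counts of 9.78 M to 11.98 M limit the calls for low genes, such as those with 1 count in 4 wild type hearts.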

Other observations

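Other gene lists divided between rises and falls. Cholesterol synthesis genes had 6 rises and 3 falls among 20, with Hsd17b7 at -1.06 on the log2 scale, and 12 rises and 2 falls on library-size scaling. Iron and heme genes had 6 rises and 6 falls among 19, or 10 and 2 on library-size scaling. Ftl1, the light chain of ferritin, rose by 1.36, with 34.6% of its exon length shared with another gene. Creatine and nucleotide shuttles had 6 rises and 8 falls among 18, or 7 and 5 on library-size scaling. Gatm, the first enzyme of creatine synthesis, rose by 1.70, while Ckm, the muscle creatine kinase that uses creatine, went from 2450 ± 108 to 1264 ± 131 CPM. Integrins and their partners had 12 rises and 5 falls among 22, and the 5 falls became 0 on library-size scaling. Of 376 long noncoding RNA genes tested, 47 rose and 52 fell, which are lower shares than the 22.3% and 21.4% over all genes tested.

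Immediate early genes, which respond within a short time of a stimulus, rose in 13 of 22 cases and fell in 2. Egr2 rose by 3.28 and Atf3 by 2.38 on the log2 scale. Annexin and S100 genes rose in 11 of 17 cases and fell in 1. Oxidant and antioxidant genes had 16 rises and 7 falls among 33, or 22 and 4 on library-size scaling, with Cybb, the phagocyte oxidase subunit, up by 1.88 and Prdx3, a mitochondrial peroxidase, down at -0.54.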
